A study of Homo sapiens with 6 samples.

Results

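The autophagy and ER-phagy genes described here are 45 genes, taken by gene symbol from the 58825 genes of the deposited table, and a row was found for all 45. Autophagy encloses cell material in a membrane that grows into an autophagosome and fuses with a lysosome, and ER-phagy is its selective form for the endoplasmic reticulum (ER). They were measured by RNA sequencing in MHCC97H, an established human hepatocellular carcinoma line, in 3 libraries labelled shControl, a control hairpin, and 3 labelled shPTBP1, where a hairpin targets the mRNA of the splicing regulator PTBP1. The labels mark the shControl cells as wild type and the shPTBP1 cells as a PTBP1 knockdown, and give no culture, day or hairpin for a library, so p-values measure the spread between these libraries, which may be technical. Levels between genes are given in FPKM (fragments per kilobase of transcript per 1000000 fragments), and levels of 1 gene between libraries in TMM-normalized CPM (counts per 1000000 counts after scaling by the trimmed mean of M-values).

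Autophagy starts when the ULK kinase complex switches on a lipid kinase complex built around PIK3C3 and BECN1, whose product recruits the proteins that supply membrane. Enzymes of the conjugation machinery then attach proteins of the LC3 and GABARAP family to lipid of the growing membrane. Cargo receptors such as SQSTM1 and NBR1 bind these proteins and hold the cargo, and the RETREG proteins, which shape ER membrane, serve as receptors for ER-phagy. The transcription factor TFEB drives genes of autophagy and lysosomes. In liver, autophagy is known for the turnover of organelles, lipid droplets and protein aggregates.

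Counts summed to between 68704509 and 85317970 per library. PTBP1, the gene the hairpin targets, had 21.2, 16.4 and 27.4 FPKM in shControl 1, 2 and 3 and 17.3, 16.9 and 18.0 FPKM in shPTBP1 1, 2 and 3, and the groups overlapped (log2 fold change -0.29 ± 0.18, SE, edgeR adjusted p = 0.953). PTBP2, the paralog whose transcript PTBP1 is known to repress through splicing, had 2.01, 1.88 and 0.61 FPKM in shControl 1, 2 and 3 and 3.80, 4.06 and 3.21 FPKM in shPTBP1 1, 2 and 3. Every library labelled shPTBP1 lay above every shControl library for PTBP2 (log2 fold change 1.32 ± 0.41, SE, unadjusted p = 0.0152 and adjusted p = 0.718 by edgeR). Since the RNA of the targeted gene itself overlapped between the groups, directions below are between the libraries as labelled. Of 10 hepatocyte and liver tumor markers, ALB, AFP, APOB and TTR were listed at 0 in every library, APOA1, APOA2 and HNF4A did not exceed 0.09 FPKM, SERPINA1 reached 0.22, and KRT8 and KRT18 ranged from 37.7 to 53.2 and from 89.7 to 110.3. The 8 red-cell markers summed to between 594 and 989.6 FPKM in the libraries numbered 1 and 2 of both groups, and to 1.09 and 0.88 FPKM in shControl 3 and shPTBP1 3. The 9 neutrophil and monocyte markers (15.0 to 26.5 FPKM against 0.13) and the 10 lymphocyte markers (0.84 to 1.07 against at most 0.02) divided by number in the same way. The 7 fibroblast and endothelial markers summed to 30.0 to 38.5 FPKM in shControl and 41.1 to 55.2 FPKM in shPTBP1. COL3A1 made up most of each sum, with means of 23.7 and 39.0 FPKM in shControl and shPTBP1. COL1A1 had means of 8.41 and 8.29 FPKM, and COL1A2 was 0 in every library. PDGFRB, PECAM1, VWF and CDH5 did not exceed 2.23 FPKM in any library. The part of these transcripts in the results below was not tested beyond the fits that use the library number. These are numbers 1 and 2 only, number 3 as a covariate and the replicate number as a block. Values with numbers 1 and 2 only are given beside the members whose libraries divided by number or whose unadjusted p was under 0.05.

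Subsequently, the level of each member was examined. Of the 45 members, 44 had a mean of at least 1 FPKM over the 6 libraries and 14 had at least 10 FPKM, with a median of 6.45 FPKM. The cargo receptor SQSTM1 (p62) had the highest mean at 126 FPKM, followed by GABARAP at 67.1 FPKM, VMP1, an ER protein needed for autophagosome formation, at 28.9 FPKM and DRAM1, a lysosomal membrane protein induced by p53, at 25.2 FPKM. At the other end, ULK2 had 1.17 FPKM and ATG10 1.57 FPKM. MAP1LC3A, a member of the LC3 family, was listed at 0 in 5 libraries and at 0.11 FPKM in shControl 3. A count of 0 allows up to 3 counts, which is 0.0352 to 0.0437 CPM of the library totals, so MAP1LC3A could not be compared at this depth and was left out by the filter on low counts.

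**Figure D1:**
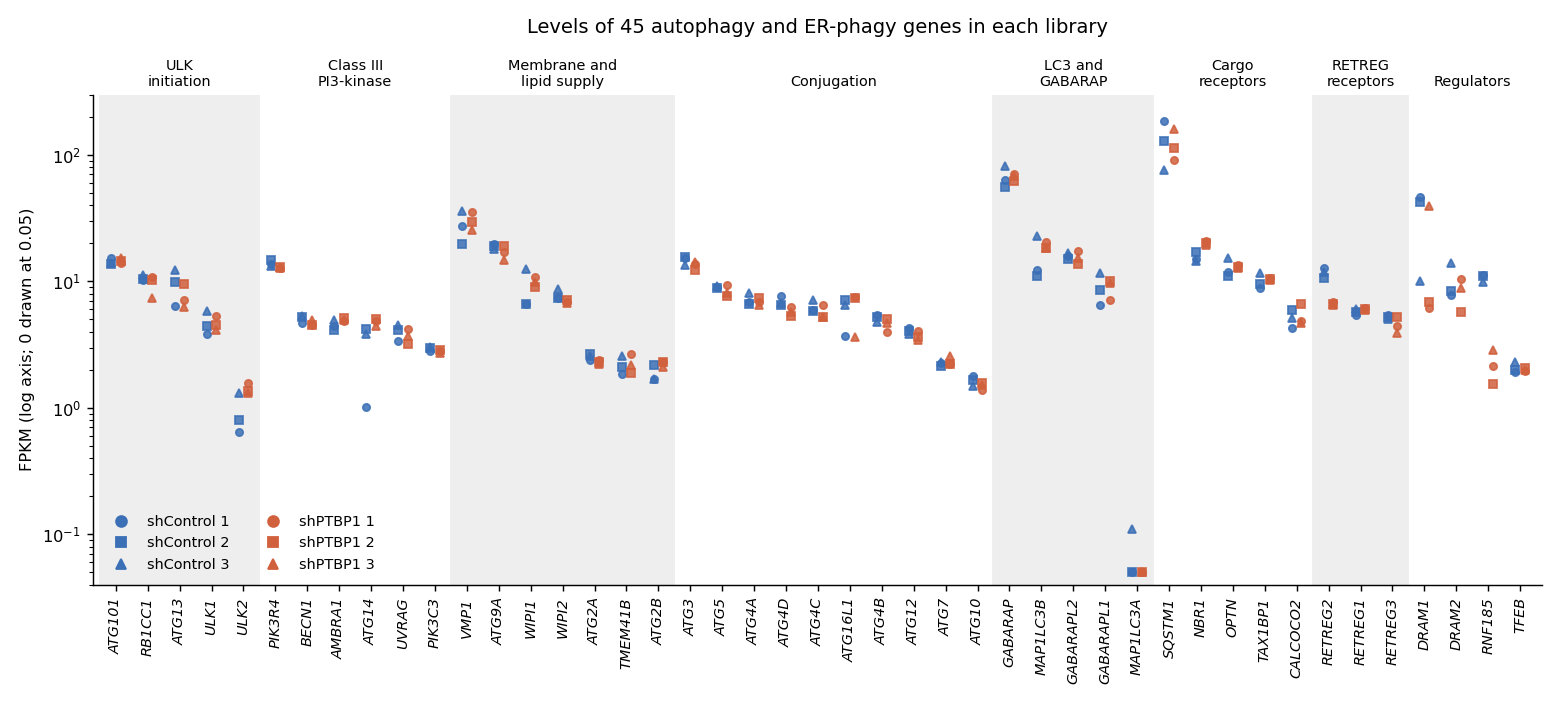
FPKM of the 45 genes in each of the 6 libraries on a log axis, grouped by role, with shControl in blue, shPTBP1 in orange and the library number given by the marker. SQSTM1 and GABARAP lie highest, MAP1LC3A lies at or near 0 in every library, and RNF185 and RETREG2 are lower in all 3 libraries labelled shPTBP1.

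The groups were then compared with edgeR's quasi-likelihood test over the 19393 genes that passed the filter on low counts, 44 of them members, with p-values adjusted by the Benjamini-Hochberg method over all of these genes. At an adjusted p under 0.05, 0 of the 44 members were called, where 6 of all genes (0.0309%) were. DESeq2 called 2 members, RNF185 and RETREG2, where it called 168 of all genes (0.753% of those it gave an adjusted p). With limma on log2(FPKM + 1), 1 member was called, RNF185, where 9 of all genes (0.0749%) were. At an unadjusted p under 0.05, 2 members were lower in the libraries labelled shPTBP1 (RNF185 and RETREG2, 4.55% of the members, against 2.11% of all genes) and 2 were higher (NBR1 and ULK2, 4.55% against 3.58%). In 4 members every library labelled shPTBP1 lay below every shControl library in CPM (9.09% of the members, against 5.46% of all genes), and in 5 it lay above (11.4% against 6.49%). Leaving out 1 library gave 2 to 3 lower and 1 to 4 higher members at an unadjusted p under 0.05. Of these, 4 were higher without shControl 3, where 10.2% of all genes were. NBR1 alone was higher without shControl 1, shPTBP1 1, shPTBP1 2 or shPTBP1 3. Set against the background, these counts were not read as a result about the members as a group. The median log2 fold change of the 44 members was -0.04, beside -0.01 for all genes, and 39 of the 44 had an absolute log2 fold change under 0.5. Their standard errors ran from 0.0935 to 0.848, with a median of 0.143.

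**Figure D2:**
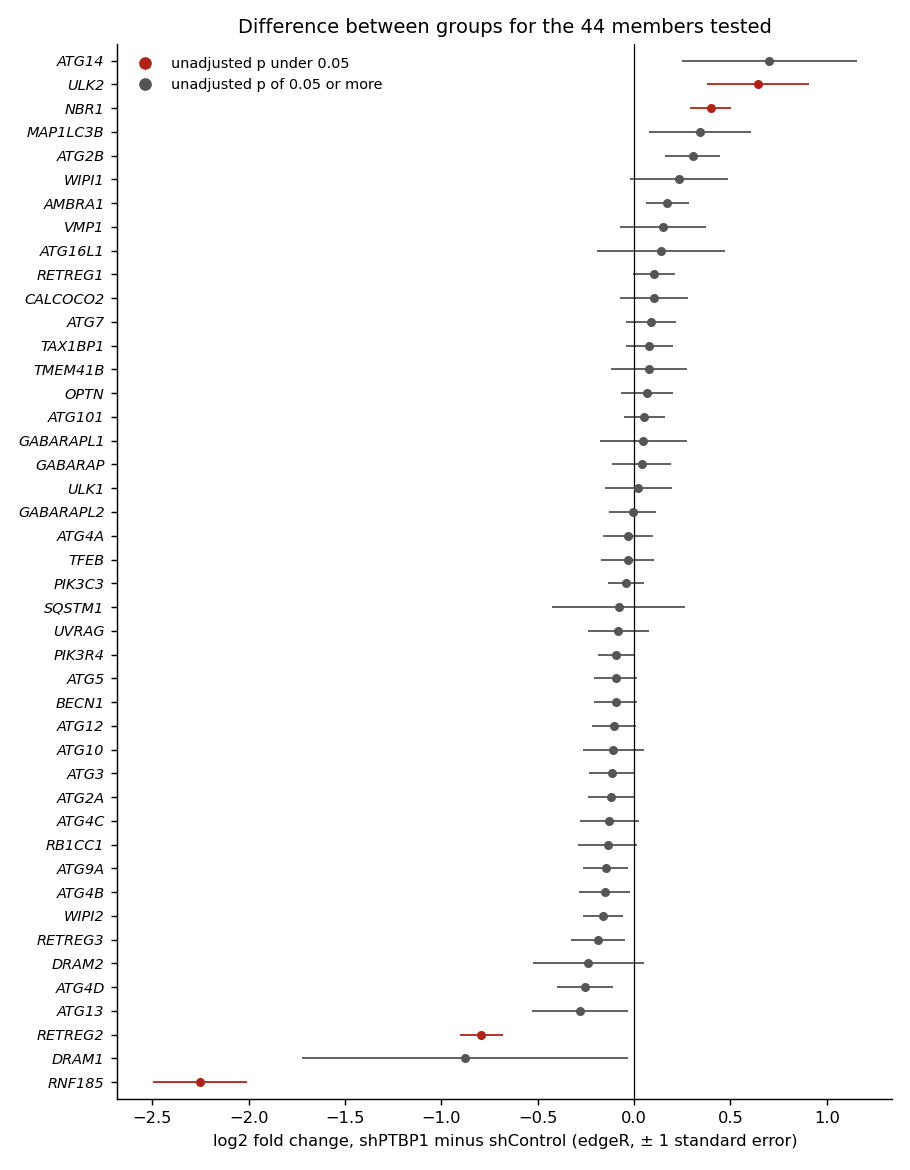
Log2 fold change of the 44 tested members, shPTBP1 minus shControl, with bars of 1 standard error from edgeR, ordered by value, and in red those with an unadjusted p under 0.05. RNF185 at -2.25 lies apart at the lower end with a bar of 0.25, and RETREG2 at -0.79 has a bar of 0.11. DRAM1 at -0.88 lies between them with a bar of 0.85, and ATG14 at 0.70 has a bar of 0.46.

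RNF185, a ubiquitin ligase of the ER membrane that marks misfolded proteins for degradation (chr22:31160182-31207019, plus strand, hg38), had the largest difference among the members. Its level was 46.3, 44.5 and 39.9 CPM in shControl 1, 2 and 3 and 8.92, 6.34 and 12.2 CPM in shPTBP1 1, 2 and 3. All 3 libraries labelled shPTBP1 were far below all 3 shControl libraries, 4.77-fold in the fitted ratio. This was a log2 fold change of -2.25 ± 0.25 (SE, unadjusted p = 3.35e-05 and adjusted p = 0.0812 by edgeR). Without shControl 3 the edgeR value was -2.31 (adjusted p = 0.0375). DESeq2, which called 0.753% of the genes it gave an adjusted p, called RNF185 (adjusted p = 1.56e-15), and limma on log2(FPKM + 1), which called 0.0749%, did so as well, with a log2 fold change of -1.90 (adjusted p = 0.0176). The same-numbered log2 ratios of CPM, shPTBP1 over shControl, were -2.38, -2.81 and -1.71 for numbers 1, 2 and 3, and with numbers 1 and 2 only the edgeR value was -2.57 (adjusted p = 0.0478). In edgeR it was -2.29 (adjusted p = 0.155) with number 3 as a covariate and -2.30 (adjusted p = 0.577) with the replicate block. Among the 16 alternative fits its unadjusted p was under 0.05 in 16 and its adjusted p in 5. No gene overlapping RNF185 in the deposited coordinates reached 1 CPM.

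**Figure D3:**
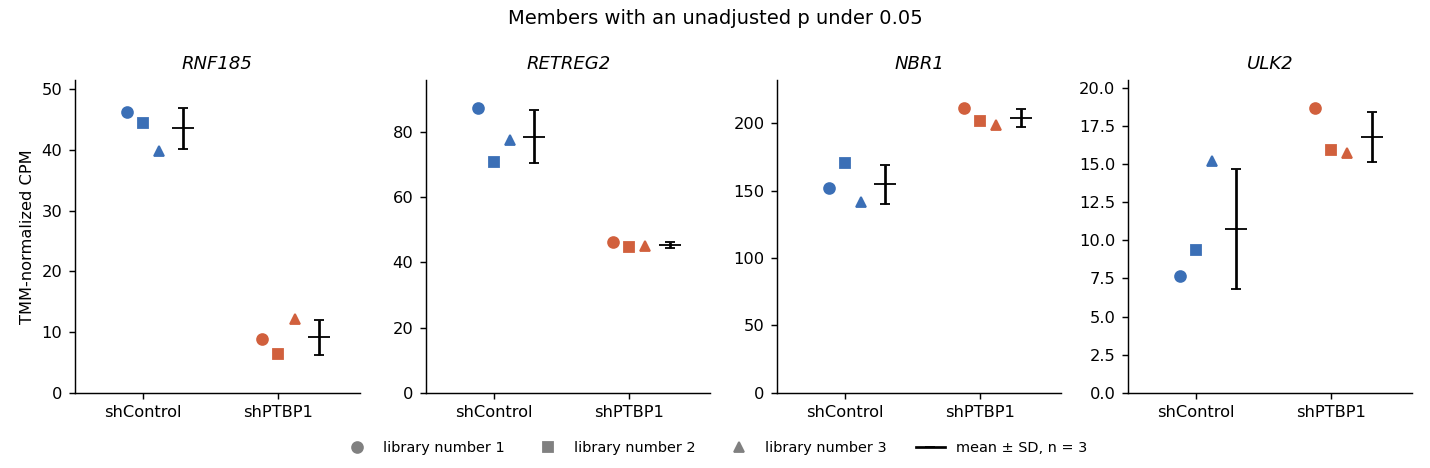
TMM-normalized CPM of RNF185, RETREG2, NBR1 and ULK2 in each library, with the library number as the marker and the mean ± SD of 3 libraries beside each group. In all 4 genes the groups do not overlap, and for ULK2 shControl 3 lies close to the libraries labelled shPTBP1.

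Among the RETREG receptors, RETREG2 had the widest gap between the groups. RETREG2 (chr2:219176225-219185475, plus strand) had 87.3, 70.9 and 77.6 CPM in shControl 1, 2 and 3 and 46.4, 44.6 and 45.1 CPM in shPTBP1 1, 2 and 3. The libraries labelled shPTBP1 were close to each other and all lay below the lowest shControl library. Its log2 fold change was -0.79 ± 0.11 (SE, unadjusted p = 1.77e-04 and adjusted p = 0.156 by edgeR), a fitted 1.73-fold lower level, and it was -0.79 (adjusted p = 4.19e-04) in DESeq2 and -0.80 (adjusted p = 0.108) in edgeR with numbers 1 and 2 only. The same-numbered log2 ratios were -0.91, -0.67 and -0.78. CNPPD1, which overlaps RETREG2 on the opposite strand and shares reads with it if strand was ignored in counting, had 34.7, 30.4 and 23.5 CPM in shControl 1, 2 and 3 and 23.0, 27.7 and 26.0 CPM in shPTBP1 1, 2 and 3, a difference between group means smaller than that of RETREG2. RETREG1 (FAM134B), an ER-phagy receptor known for the turnover of ER sheets, had 29.8, 30.9 and 31.8 CPM in shControl 1, 2 and 3 and 33.9, 32.7 and 32.9 CPM in shPTBP1 1, 2 and 3. Its groups did not overlap in TMM-normalized CPM but did in FPKM and in CPM of the library totals, and the log2 fold change was 0.10 ± 0.11 (SE, edgeR adjusted p = 0.975). RETREG3 had 33.7, 31.8 and 30.2 CPM in shControl 1, 2 and 3 and 27.6, 32.1 and 24.3 CPM in shPTBP1 1, 2 and 3, with overlapping groups and a log2 fold change of -0.19 ± 0.14 (SE, edgeR adjusted p = 0.957). Taken by level, the 3 receptors had mean FPKM in shControl and shPTBP1 of 11.7 ± 1.12 and 6.65 ± 0.142 for RETREG2, 5.73 ± 0.280 and 6.04 ± 0.132 for RETREG1 and 5.25 ± 0.200 and 4.53 ± 0.677 for RETREG3 (SD, n = 3), so RETREG2 was the highest of the 3 in shControl and lay close to RETREG1 in the libraries labelled shPTBP1.

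RETREG2 is also 1 of 3 members whose promoter holds the E-box CACGTG, the core of the site that TFEB and its relatives bind in autophagy and lysosome genes. In the RefSeq promoters of GRCh38.p14, which span 250 bases before to 50 after a start site, 53 promoters matched 40 of the members, and RNF185, RB1CC1, UVRAG, ATG4D and MAP1LC3A had no entry. CACGTG, which reads the same on both strands, was in 3 of the 53 (5.66%) and in 7.26% of all 35116 promoters. Its longer form TCACGTGA, each of which also counts as a CACGTG, was in 2 of the 53 (3.77%) and in 0.98% of all. The stretch around the E-boxes of these 3 promoters is shown because it sets RETREG2 beside the other members that hold the same letters, with the E-box in capitals and each sequence read 5′ to 3′ on the gene's strand.
RETREG2, chr2:219178163-219178274, plus strand: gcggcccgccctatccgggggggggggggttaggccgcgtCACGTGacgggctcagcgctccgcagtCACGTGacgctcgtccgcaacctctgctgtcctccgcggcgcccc
ATG3, chr3:112561950-112562020, minus strand: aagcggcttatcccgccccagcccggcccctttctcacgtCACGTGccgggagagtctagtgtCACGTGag
ATG14, chr14:55411831-55411891, minus strand: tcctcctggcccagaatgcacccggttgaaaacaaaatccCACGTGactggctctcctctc
The 2 E-boxes of RETREG2 began at -72 and -45 from the start site and both had the longer form, and this start site lies inside the deposited span of the gene. Those of ATG3 began at -18 and 5, and that of ATG14 at -21. RETREG2 was lower in the libraries labelled shPTBP1, while ATG3, the enzyme that hands LC3 and GABARAP to lipid, had 107 ± 9.40 and 98.6 ± 8.65 CPM in shControl and shPTBP1 (SD, n = 3) with overlapping groups, and ATG14 had 17.8 ± 10.2 and 29.0 ± 1.71 CPM. The log2 fold changes were -0.79 ± 0.11 for RETREG2, -0.11 ± 0.12 for ATG3 and 0.70 ± 0.46 for ATG14 (SE, edgeR). That of ATG14 was 0.29 without shControl 1. A link between the E-box and these values was not tested.

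The cargo receptors hold the material to be degraded and link it to LC3 and GABARAP. NBR1 (chr17:43170481-43211689, plus strand), a receptor for aggregates and peroxisomes, had 152, 171 and 142 CPM in shControl 1, 2 and 3 and 211, 202 and 199 CPM in shPTBP1 1, 2 and 3. All 3 libraries labelled shPTBP1 lay above all 3 shControl libraries. For NBR1 the log2 fold change was 0.40 ± 0.11 (SE, unadjusted p = 0.00660 and adjusted p = 0.594 by edgeR), and it was 0.40 (adjusted p = 0.455) in DESeq2 and 0.36 (adjusted p = 0.179) with numbers 1 and 2 only. The unadjusted p of NBR1 was under 0.05 in 16 of 16 alternative fits and its adjusted p in 0. A gene on the opposite strand that overlaps NBR1, AC060780, had 29.0, 35.5 and 36.2 CPM in shControl 1, 2 and 3 and 36.0, 35.5 and 28.9 CPM in shPTBP1 1, 2 and 3.

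SQSTM1, which carries ubiquitin-tagged cargo and is itself degraded by autophagy, varied more within than between groups. Its level was 1673, 1144 and 668 CPM in shControl 1, 2 and 3 and 823, 1017 and 1458 CPM in shPTBP1 1, 2 and 3. Its lowest and its highest library were both shControl libraries, and its log2 fold change was -0.08 ± 0.34 (SE, edgeR adjusted p = 0.995). MRNIP, which overlaps SQSTM1 on the opposite strand, had 46.8, 40.4 and 34.6 CPM in shControl 1, 2 and 3 and 5.55, 34.6 and 8.43 CPM in shPTBP1 1, 2 and 3. The other cargo receptors had overlapping groups, with mean FPKM in shControl and shPTBP1 of 12.7 ± 2.23 and 13.0 ± 0.380 for OPTN, 10.03 ± 1.53 and 10.4 ± 0.163 for TAX1BP1 and 5.11 ± 0.855 and 5.39 ± 1.07 for CALCOCO2 (NDP52), receptors known from mitophagy and from the clearance of bacteria.

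The ULK complex starts autophagosome formation under the control of mTORC1 and AMPK. ULK2 (chr17:19770829-19867936, minus strand), the less abundant of its kinases here, had 7.67, 9.37 and 15.2 CPM in shControl 1, 2 and 3 and 18.7, 15.9 and 15.7 CPM in shPTBP1 1, 2 and 3. The libraries labelled shPTBP1 were all higher in TMM-normalized CPM, by little over shControl 3, and the groups overlapped in FPKM and in CPM of the library totals. The log2 fold change was 0.64 ± 0.26 (SE, unadjusted p = 0.0441 and adjusted p = 0.870 by edgeR), 0.65 (adjusted p = 0.579) in DESeq2 and 1.02 (adjusted p = 0.112) with numbers 1 and 2 only, and the same-numbered ratio of number 3 was 0.05 on the log2 scale. Its unadjusted p was under 0.05 in 6 of the 16 alternative fits and, of the libraries left out in turn, only without shControl 3. Its kinase relative ULK1 had mean FPKM of 4.68 ± 1.01 and 4.65 ± 0.606, and the scaffold subunits had 10.6 ± 0.512 and 9.50 ± 1.86 (RB1CC1, also named FIP200), 9.53 ± 2.96 and 7.68 ± 1.73 (ATG13) and 14.3 ± 0.802 and 14.6 ± 0.706 (ATG101). All 4 had overlapping groups and an adjusted p of 0.968 or more (edgeR).

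The lipid kinase complex makes the phosphoinositide that marks the forming autophagosome. ATG14, the subunit that directs the complex to the ER, had 6.203, 25.04 and 22.3 CPM in shControl 1, 2 and 3 and 29.5, 30.5 and 27.1 CPM in shPTBP1 1, 2 and 3. ATG14 was low in shControl 1 alone, and the other shControl libraries lay just below the lowest library labelled shPTBP1. The log2 fold change was 0.70 ± 0.46 (SE, unadjusted p = 0.167 and adjusted p = 0.953 by edgeR), and 0.29 (adjusted p = 1.000) without shControl 1. AMBRA1, a scaffold that binds BECN1, had 40.4, 37.5 and 44.5 CPM in shControl 1, 2 and 3 and 44.7, 46.9 and 46.3 CPM in shPTBP1 1, 2 and 3, with the highest shControl library just below the lowest labelled shPTBP1 and a log2 fold change of 0.17 ± 0.11 (SE, edgeR adjusted p = 0.953). The AMBRA1 groups overlapped in FPKM, and AC024293, a gene on the same strand within its span, had 74.9, 62.9 and 55.5 CPM in shControl 1, 2 and 3 and 58.6, 59.7 and 56.5 CPM in shPTBP1 1, 2 and 3, so reads of the pair cannot be told apart with certainty. The catalytic subunit PIK3C3 had mean FPKM of 2.93 ± 0.114 and 2.80 ± 0.0651, its regulatory partner PIK3R4 14.0 ± 0.817 and 12.9 ± 0.156, BECN1 5.09 ± 0.326 and 4.66 ± 0.251 and UVRAG, which replaces ATG14 in a second complex, 3.99 ± 0.574 and 3.70 ± 0.5001 in shControl and shPTBP1. Their groups overlapped in TMM-normalized CPM, although PIK3R4 lay lower in every library labelled shPTBP1 in FPKM.

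Of the members that supply membrane and lipid, WIPI2, which reads the phosphoinositide and brings in ATG16L1, had 80.0, 78.2 and 90.9 CPM in shControl 1, 2 and 3 and 73.6, 75.9 and 73.2 CPM in shPTBP1 1, 2 and 3. Its groups did not overlap, with a log2 fold change of -0.16 ± 0.10 (SE, edgeR adjusted p = 0.953). WIPI1, a relative with the same lipid-binding fold, had 27.2, 26.8 and 49.8 CPM in shControl 1, 2 and 3 and 44.5, 36.8 and 40.6 CPM in shPTBP1 1, 2 and 3. WIPI1 was lowest in shControl 1 and 2 and highest in shControl 3, so its groups overlapped, and its log2 fold change was 0.23 ± 0.25 (SE, edgeR adjusted p = 0.976) over all libraries and 0.59 (adjusted p = 0.160) with numbers 1 and 2 only. The lipid scramblase ATG9A had mean FPKM of 19.1 ± 0.866 and 16.9 ± 2.02, the lipid transfer proteins ATG2A and ATG2B 2.55 ± 0.152 and 2.30 ± 0.0850 and 1.86 ± 0.295 and 2.25 ± 0.113, and the ER scramblases VMP1 and TMEM41B 27.7 ± 8.27 and 30.2 ± 4.79 and 2.17 ± 0.369 and 2.24 ± 0.393. None of these 5 passed an unadjusted p under 0.05 in edgeR, and ATG2B came nearest (log2 fold change 0.30 ± 0.14, SE, edgeR adjusted p = 0.898).

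The conjugation machinery works like a ubiquitin cascade, in which ATG7 activates, ATG10 and ATG3 transfer and the ATG12, ATG5 and ATG16L1 complex places LC3 and GABARAP on the membrane. Of its 10 members 8 had a negative log2 fold change and 2 a positive one, with a median of -0.11 and none at an unadjusted p under 0.05 in edgeR. Among the 19393 genes tested, 10089 had a negative and 9304 a positive log2 fold change, with a median of -0.01. ATG4D, 1 of the 4 proteases that trim and release LC3 and GABARAP, had 20.9, 17.6 and 18.0 CPM in shControl 1, 2 and 3 and 17.1, 14.5 and 15.8 CPM in shPTBP1 1, 2 and 3. Every library labelled shPTBP1 lay below every shControl library, by a narrow gap, and the log2 fold change was -0.26 ± 0.15 (SE, edgeR adjusted p = 0.953). KRI1, which overlaps ATG4D on the opposite strand at a higher level, had 48.2, 51.9 and 44.1 CPM in shControl 1, 2 and 3 and 53.9, 63.5 and 66.6 CPM in shPTBP1 1, 2 and 3. KRI1 was higher in every library labelled shPTBP1, the opposite direction to ATG4D. The groups of the other 9 members of the machinery overlapped in TMM-normalized CPM. The other proteases had mean FPKM of 7.24 ± 0.779 and 6.95 ± 0.451 (ATG4A), 5.17 ± 0.354 and 4.57 ± 0.513 (ATG4B) and 6.31 ± 0.676 and 5.66 ± 0.768 (ATG4C). The enzymes ATG7, ATG3 and ATG10 had 2.25 ± 0.0777 and 2.34 ± 0.196, 14.8 ± 1.13 and 13.4 ± 1.05 and 1.64 ± 0.151 and 1.49 ± 0.0929, and ATG5 and ATG12 had 9.07 ± 0.127 and 8.33 ± 0.897 and 4.06 ± 0.225 and 3.71 ± 0.286. ATG16L1 had 26.7, 50.8 and 45.5 CPM in shControl 1, 2 and 3 and 55.0, 53.5 and 27.0 CPM in shPTBP1 1, 2 and 3. In ATG16L1 the libraries shControl 1 and shPTBP1 3 stood at about the same low level, 1 in each group, and its log2 fold change was 0.14 ± 0.33 (SE, edgeR adjusted p = 0.991).

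The LC3 and GABARAP proteins coat the autophagosome membrane and bind the receptors. MAP1LC3B, the family member used as a marker of autophagosomes, had 74.3, 65.0 and 133 CPM in shControl 1, 2 and 3 and 124, 109 and 113 CPM in shPTBP1 1, 2 and 3. It was lowest in shControl 1 and 2 and highest in shControl 3, and its log2 fold change was 0.34 ± 0.26 (SE, edgeR adjusted p = 0.957) over all libraries and 0.74 (adjusted p = 0.104) with numbers 1 and 2 only. GABARAP had 148, 127 and 185 CPM in shControl 1, 2 and 3 and 166, 145 and 162 CPM in shPTBP1 1, 2 and 3, and the groups overlapped with a log2 fold change of 0.04 ± 0.15 (SE, edgeR adjusted p = 0.995). GABARAPL1 had 31.8, 40.9 and 54.4 CPM in shControl 1, 2 and 3 and 34.7, 48.4 and 48.3 CPM in shPTBP1 1, 2 and 3, with a log2 fold change of 0.05 ± 0.23 (SE, edgeR adjusted p = 0.995). GABARAPL2 (GATE-16) had 56.9, 53.1 and 58.6 CPM in shControl 1, 2 and 3 and 62.5, 49.0 and 56.3 CPM in shPTBP1 1, 2 and 3, with a log2 fold change of -0.01 ± 0.12 (SE, edgeR adjusted p = 0.998). None of the 4 measured members of the family had groups that stood apart. By mean FPKM over the 6 libraries the order was GABARAP (67.1), MAP1LC3B (17.2), GABARAPL2 (15.7) and GABARAPL1 (8.93), and the libraries of MAP1LC3B and GABARAPL2 overlapped in FPKM.

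Of the regulators, DRAM1 had the largest standard error among the 44 members tested. Its level was 217, 197 and 45.6 CPM in shControl 1, 2 and 3 and 29.3, 32.0 and 189 CPM in shPTBP1 1, 2 and 3. The libraries shControl 1, shControl 2 and shPTBP1 3 were high and shControl 3, shPTBP1 1 and shPTBP1 2 were low, so that the levels did not follow the labels. The log2 fold change over all libraries was -0.88 ± 0.85 (SE, edgeR adjusted p = 0.975). With numbers 1 and 2 only, where 0.319% of genes were called at an adjusted p under 0.05, it was -2.76 (adjusted p = 0.0352), whereas the same-numbered log2 ratio of number 3 was 2.05, in the opposite direction. SQSTM1 had its 2 highest values in shControl 1 and shPTBP1 3 and its lowest in shControl 3, with a log2 ratio of 1.13 for number 3 and of -1.02 and -0.17 for numbers 1 and 2. With numbers 1 and 2 only the log2 fold change of SQSTM1 was -0.61 (adjusted p = 0.252). DRAM2, a lysosomal relative of DRAM1, had mean FPKM of 10.05 ± 3.33 and 8.32 ± 2.35 and TFEB 2.09 ± 0.206 and 2.00 ± 0.0557 in shControl and shPTBP1, both with overlapping groups. The log2 fold change of TFEB was -0.03 ± 0.14 (SE, edgeR adjusted p = 0.995). DRAM1, SQSTM1, MAP1LC3B, WIPI1 and ATG16L1 were described in each library because of the values they had.

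**Figure D4:**
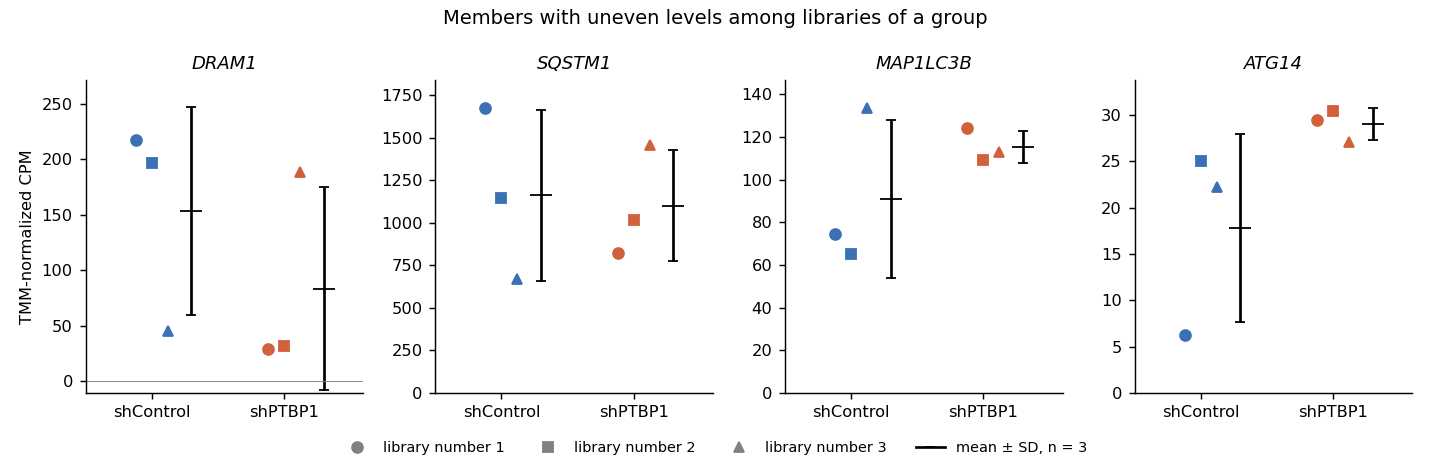
TMM-normalized CPM of DRAM1, SQSTM1, MAP1LC3B and ATG14 in each library, with the library number as the marker and the mean ± SD of 3 libraries beside each group. DRAM1 is high in shControl 1, shControl 2 and shPTBP1 3, MAP1LC3B is low in shControl 1 and 2, and ATG14 is low in shControl 1 alone.

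Because the libraries numbered 3 lacked the blood-cell transcripts that those numbered 1 and 2 held, the members were counted again with numbers 1 and 2 only, 2 libraries a group. At an unadjusted p under 0.05, 4 of 44 members were lower (DRAM1, RNF185, RETREG2 and SQSTM1), where 7.46% of all genes were, and 4 were higher (WIPI1, ULK2, MAP1LC3B and NBR1), where 10.3% were. At an adjusted p under 0.05 these libraries gave 2 members, DRAM1 and RNF185, where 63 of all genes (0.319%) were called. The groups of RNF185, RETREG2, NBR1 and ULK2 did not overlap in TMM-normalized CPM over all libraries. Their direction in that fit and the sign of their number 3 ratios were thus set in advance and are no separate evidence. The number 3 ratios were -1.71, -0.78, 0.49 and 0.05 on the log2 scale, that of ULK2 near 0.

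Autophagosomes end in the lysosome, so the lysosome's membrane proteins, proton pump and hydrolases were examined beside the members. Of 29 such genes tested, 0 were called at an adjusted p under 0.05. At an unadjusted p under 0.05, 6 were higher and 1 was lower in the libraries labelled shPTBP1, where 3.58% and 2.11% of all genes were. Their median log2 fold change was 0.15, beside -0.04 for the members and -0.01 for all genes. The count of higher genes was 10 of 29 with numbers 1 and 2 only, where 10.3% of all genes were higher. It was 11 without shControl 3, where 10.2% of all genes were. It was 4 without shControl 2, shPTBP1 2 or shPTBP1 3, where 2.70%, 2.23% and 2.92% of all genes were. The protease CTSL had 215, 196 and 218 CPM in shControl 1, 2 and 3 and 309, 293 and 315 CPM in shPTBP1 1, 2 and 3. The cholesterol carrier NPC2 had 177, 160.1 and 235 CPM in shControl 1, 2 and 3 and 348, 301 and 323 CPM in shPTBP1 1, 2 and 3, and LAMP1, a main protein of the lysosome membrane, had 323, 299 and 308 CPM in shControl 1, 2 and 3 and 514, 363 and 502 CPM in shPTBP1 1, 2 and 3. In all 3 genes every library labelled shPTBP1 lay above every shControl library, with log2 fold changes of 0.54 ± 0.09 (SE, edgeR adjusted p = 0.246) for CTSL, 0.77 ± 0.16 (SE, edgeR adjusted p = 0.364) for NPC2 and 0.57 ± 0.15 (SE, edgeR adjusted p = 0.571) for LAMP1. DESeq2 called CTSL and NPC2 (adjusted p = 0.0276 and 0.0167) and no other related gene, where it called 0.753% of the genes it gave an adjusted p. The other genes at an unadjusted p under 0.05 were CD63, NAGLU and CTSD, which were higher, and the lysosomal lipase LIPA, which was lower at -0.48 ± 0.12 (SE). RefSeq promoters matched 18 of the 30 listed genes, and the E-box CACGTG was in 8 of their 28 promoters (28.6%), against the 5.66% of member promoters and 7.26% of all given above. Its 8 holders were LAMP1, CD63, CTSD, NEU1, CTSA, GAA, MCOLN1 and ATP6V0D1. Of the 6 higher genes, LAMP1, CD63 and CTSD were among them, and CTSL, NPC2 and NAGLU were not. A gene without a matched promoter could not be counted as a holder, so CTSL, NPC2 and NAGLU may lack the E-box or have no entry. Whether the E-box is linked to the levels of the lysosome genes was not tested.

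**Figure D5:**
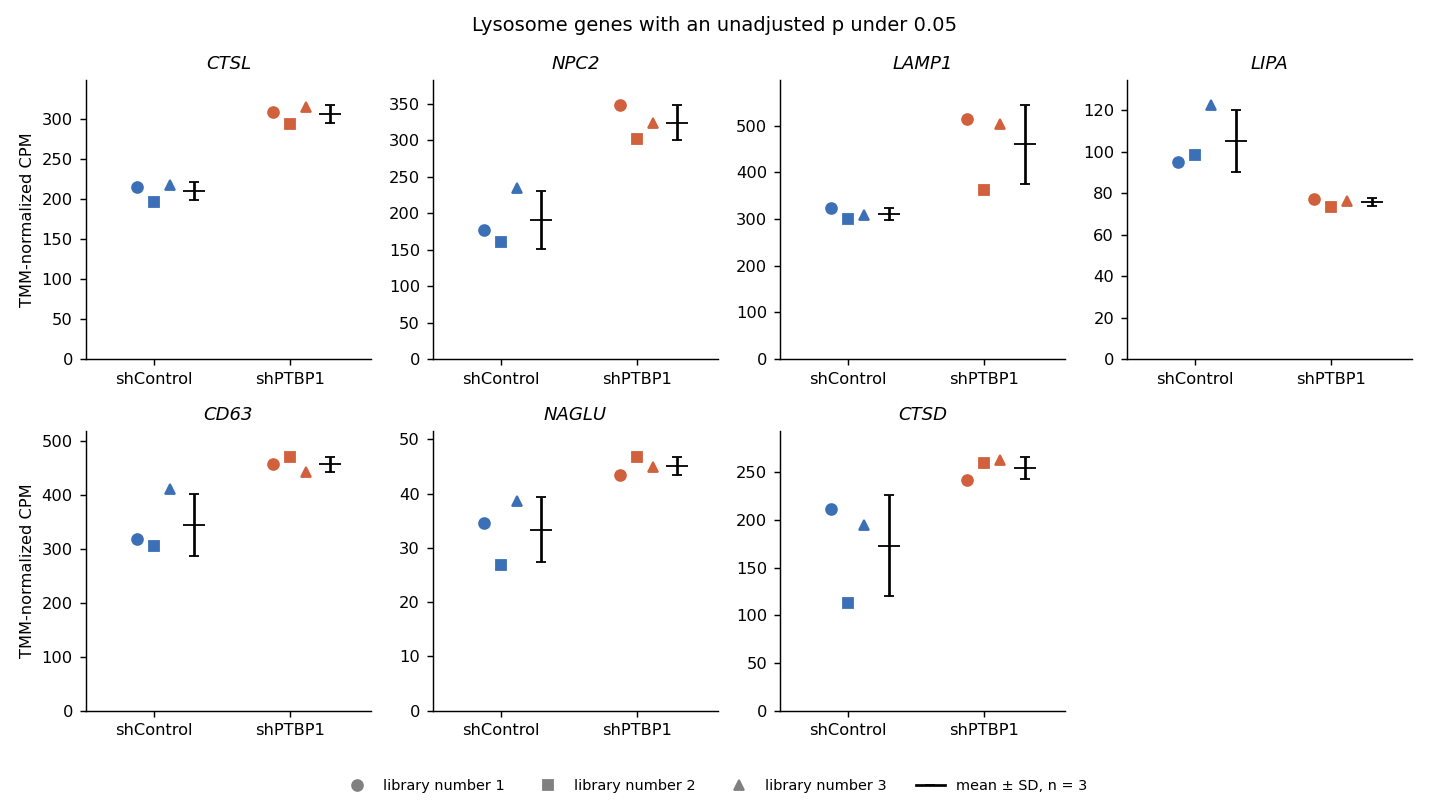
TMM-normalized CPM in each library of the 7 lysosome genes with an unadjusted p under 0.05 in edgeR, in order of that p, with the library number as the marker and the mean ± SD of 3 libraries beside each group. In all 7 the groups do not overlap, with LIPA lower and the other 6 higher in the libraries labelled shPTBP1.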

How the data were processed

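RNA of MHCC97H cells was sequenced in 6 libraries. The authors deposited 1 table of FPKM and counts for 58825 genes, and their processing notes name cutadapt 1.9, FastQC, HISAT2 2.2.1, StringTie and hg38, without settings. Strand use in counting is not given in the sources used here. The deposited counts were treated as estimated counts, since 32.5% to 34.4% of those from 1 to 40 were multiples of 4 in each library, so the depth in fragments is not known, and the limit that a count of 0 allows covers counting error only. The authors deposited the FPKM as used.

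Counts, rounded to whole numbers, entered the quasi-likelihood test of edgeR 4.0.16 under R 4.3.3, with TMM scaling, its filter on low counts and no covariates. The standard error is the absolute log2 fold change divided by the square root of F. The scripts were tested on simulated data. Alternatives were DESeq2 1.42.0, limma 3.58.1 on log2(FPKM + 1) or log2(FPKM + 0.1), other scalings, no filter, a replicate block, number 3 as a covariate, numbers 1 and 2 only and leaving out each library. Promoters came from RefSeq. Python 3.11.15 made the tables.

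All members are named. Values in every library are given for those with an unadjusted p under 0.05 or with groups that do not overlap in CPM, and for the LC3, GABARAP and RETREG genes. Of each related list, up to 3 genes with an unadjusted p under 0.05 and the smallest p are given, and other genes named were chosen after their values were seen. The members, lists and tests were chosen with earlier results of these data known. Splicing was not analysed here, and 1 gene of the lysosome list is not reported here.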

Additional observations from a re-analysis of the deposited data

How the results depend on the processing

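Among all genes the main edgeR test called 6, DESeq2 168, limma without a filter 1, number 3 as a covariate 3 and numbers 1 and 2 only 63. Each is the total of its own fit over the genes tested there, and their overlap was not counted. Leaving out 1 library gave 2 to 136, with 136 without shControl 3, 3 without shControl 1 and 2 without shControl 2, shPTBP1 1 or shPTBP1 2. Of the members, 0 were called in the main test, and DESeq2 gave 2 (RNF185 and RETREG2), limma on log2(FPKM + 1) 1 and on log2(FPKM + 0.1) 1 (RNF185), numbers 1 and 2 only 2 (DRAM1 and RNF185), and leaving out a library 0 to 1, the 1 being RNF185 without shControl 3. Of the related genes, DESeq2 called 2 and leaving out a library gave 0 to 1, the 1 being NPC2 without shControl 3. The fit with the replicate number as a block called 0 genes of all, 0 members and 0 related genes. At an unadjusted p under 0.05 it had 987 genes of all. Deviations from the group means correlated at -0.0091, 0.158 and 0.0832 between the same-numbered libraries 1, 2 and 3. Between differently numbered libraries of the 2 groups the correlations ran from -0.139 to 0.0472. The block was an alternative only, because the labels do not say that a number marks a shared day or batch. The libraries numbered 3 of both groups nevertheless stood apart from the others in blood-cell markers.

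RNF185 and RETREG2 were lower and NBR1 higher in all 16 alternatives, with log2 fold changes from -2.57 to -1.90, from -0.86 to -0.71 and from 0.34 to 0.47. The groups of these genes did not overlap, so only the size and not the direction could vary. The adjusted p of RNF185 ranged from 1.56e-15 to 0.577. The 24 named genes were chosen by their values in these libraries, and none had an adjusted p under 0.05 in the main edgeR test. Keeping their side of the threshold thus meant staying uncalled, and their direction was largely set in advance. Over these genes and their alternatives, 372 of 384 values kept direction and side of the threshold, 10 newly passed it and 2 changed sign. Both were SQSTM1, at 0.28 without shControl 1 and 0.09 without shPTBP1 1, in a range of -0.36 to 0.28 over the libraries left out and at -0.61 with numbers 1 and 2 only. The members whose groups did not overlap also depended on the scaling: 4 were lower and 5 higher in TMM-normalized CPM, 6 and 2 in CPM of the library totals, and 5 and 2 in FPKM. With 3 libraries a group, small differences of the members could not be resolved.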

Other observations

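Genes of the steps around autophagy were compared in the same edgeR fit, and 0 were called at an adjusted p under 0.05 in the 8 lists below, by edgeR or by DESeq2, while 4 had an unadjusted p under 0.05 in edgeR. Over all genes tested 5.69% did so, and a share near that is not a result about these lists, so the 4 genes are given as values. Among the mitophagy receptors and the PINK1 pathway, 1 of 11 genes tested had an unadjusted p under 0.05. This was PINK1, the kinase that marks damaged mitochondria, with 38.5, 37.9 and 35.5 CPM in shControl 1, 2 and 3 and 30.2, 32.5 and 28.0 CPM in shPTBP1 1, 2 and 3 and a log2 fold change of -0.30 ± 0.12 (SE, edgeR adjusted p = 0.856). Of the mTORC1 and AMPK genes 1 of 17 did so, PRKAA1, a catalytic subunit of AMPK, with 109.7, 122 and 104 CPM in shControl 1, 2 and 3 and 88.1, 90.3 and 88.2 CPM in shPTBP1 1, 2 and 3 and a log2 fold change of -0.33 ± 0.10 (SE, edgeR adjusted p = 0.686). In both genes every library labelled shPTBP1 lay below every shControl library.

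Of 15 genes of autophagosome fusion with lysosomes, the SNARE protein YKT6 had an unadjusted p under 0.05, with 191, 173 and 135 CPM in shControl 1, 2 and 3 and 147, 71.5 and 78.7 CPM in shPTBP1 1, 2 and 3 and overlapping groups (log2 fold change -0.74 ± 0.29, SE, edgeR adjusted p = 0.862). Of 21 genes of ER membrane ubiquitin ligases and ER-associated degradation, the pathway of RNF185, 1 did so. It was the ubiquitin-conjugating enzyme UBE2G2, with 107, 108 and 91.7 CPM in shControl 1, 2 and 3 and 87.2, 82.2 and 78.3 CPM in shPTBP1 1, 2 and 3 and a log2 fold change of -0.31 ± 0.11 (SE, edgeR adjusted p = 0.805). RNF5, the close relative of RNF185, had 103, 100.4 and 116 CPM in shControl 1, 2 and 3 and 104, 107 and 102 CPM in shPTBP1 1, 2 and 3 and a log2 fold change of -0.03 ± 0.10 (SE, edgeR adjusted p = 0.992). No gene had an unadjusted p under 0.05 among the 7 other ER-phagy receptors and adaptors (SEC62, RTN3, ATL3, CCPG1, TEX264, CALCOCO1 and CDK5RAP3), the 7 genes of UFMylation, the 11 other core and accessory autophagy genes tested and the 10 transcription factors of autophagy and lysosome genes. Their median log2 fold changes were -0.08, 0.06, -0.10 and 0.04. RNF5 was chosen for its likeness to RNF185.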
